A study of Rattus norvegicus with 35 samples.

Results

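A set of 9 surface receptors by which phagocytes bind particles, dead cells and bacterial products were followed in rat lung. They are the genes Itgam, Itgax, Itgb2, Msr1, Marco, Timd4, Cd14, Ms4a7 and Cd68, and they were taken by name: all 13 non-control probes that carry 1 of these 9 gene names were used, out of 45598 probes and 34766 gene names on the array. Gene expression was measured in the accessory lobe of the lung of 35 female Sprague Dawley rats, 1 rat per array, 12 weeks old when exposure began. Instillation into the trachea took place weekly for 4 weeks, and the lobe was examined 3 days after exposure. The multi-walled carbon nanotubes given were Mitsui-7, which is thick and needle-like, and NM-403, which is thinner and shorter.

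The rats formed 6 groups. WT Mitsui-7 and WT NM-403 are 6 wild-type rats each given the nanotube at 0.25 mg per rat, and WT control is 6 wild-type rats given the vehicle Pluronic. Rats labelled GMO are heterozygous for p53 and are called p53het here. The p53het Mitsui-7 and p53het control groups held 6 rats each and the p53het NM-403 group held 5, with the same agents and dose. Controls of both genotypes received the vehicle by the same route. The labels do not describe the altered p53 allele further, and they do not say whether the dose is that of 1 instillation or of all of them. Whole lobes were measured, so that more cells of a type and more RNA per cell cannot be told apart in any value below.

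Macrophages and neutrophils take up inhaled fibres through receptors that recognise either the bare particle or proteins settled on it. Itgam and Itgax encode the alpha chains CD11b and CD11c, each of which pairs with the beta 2 chain CD18, encoded by Itgb2, to form a complement receptor that also mediates adhesion to the vessel wall. Msr1 and Marco encode class A scavenger receptors of macrophages. Timd4 encodes TIM-4, a receptor for phosphatidylserine on dying cells that has been reported in mice to bind multi-walled carbon nanotubes. Cd14 encodes the co-receptor that hands endotoxin to TLR4, Ms4a7 a four-span membrane protein of macrophages, and Cd68 a heavily glycosylated lysosomal membrane protein that reaches the surface in part.

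Probes of the receptors are 60 bases long, and the sequences of 6 of them are given. The levels of Itgax, Marco, Cd14 and Ms4a7 below rest on the probes shown. Those of Itgam and Msr1 rest on A_44_P1161690 and A_44_P1113884, which are not shown, and the probes printed for these genes are their second probes. Positions are those of the array's own annotation on rat build rn4. The Itgam probe A_43_P15993 (chr1:187385032-187385565, plus strand, with a gap for an intron) and the Itgax probe A_64_P120479 (chr1:187416145-187416204, plus strand) come from the matching stretch of neighbouring, related genes. Capitals mark the 34 of 45 aligned bases that are identical between them (75.6%). In the Marco probe A_44_P175833 (chrUn:9449917-9450079) capitals mark a GGN codon, which encodes glycine, at all 7 of the 7 positions 3 codons apart, the repeat of a collagen-like stalk. The Msr1 probe A_44_P928825 (chr16:56293586-56293645, plus strand), the Cd14 probe A_44_P469584 (chr18:29374990-29375049, minus strand) and the Ms4a7 probe A_44_P510949 (chr1:213842090-213842149, minus strand) carry no marks.
Itgam A_43_P15993: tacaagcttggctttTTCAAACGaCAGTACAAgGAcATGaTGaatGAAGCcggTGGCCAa
Itgax A_64_P120479: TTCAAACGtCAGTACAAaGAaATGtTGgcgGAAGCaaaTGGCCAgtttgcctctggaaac
Marco A_44_P175833: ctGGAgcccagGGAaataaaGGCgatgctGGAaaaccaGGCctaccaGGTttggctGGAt
Msr1 A_44_P928825: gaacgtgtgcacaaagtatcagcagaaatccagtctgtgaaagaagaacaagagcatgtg
Cd14 A_44_P469584: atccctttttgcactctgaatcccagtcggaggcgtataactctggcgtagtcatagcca
Ms4a7 A_44_P510949: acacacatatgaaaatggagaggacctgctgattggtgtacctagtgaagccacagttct

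Between 66.1% and 86.4% of the 58717 non-control spots of an array gave signal well above background. Arrays lay on 5 slides that each held 5 or 6 of the groups. The array with 86.4% was WT Mitsui-7 replicate 5. Levels are log2 of the processed signal minus the array's 75th percentile, so that a difference between groups is a log2 fold change and the level of 1 probe is not set against that of another. A gene with several probes is described by the probe of highest mean unless another is named. All 9 receptors passed the filter on dim probes, in a table of 24475 genes fitted together with limma, and a gene was called at an adjusted p under 0.05. Defining lung genes were measured, with summed levels of 8 of them at 8.28 to 8.43 in WT Mitsui-7 and 8.29 to 8.46 in WT controls. They were at 8.34 to 8.71 in p53het Mitsui-7 rats and 8.17 to 8.88 in p53het controls. Under Mitsui-7 1 of the 8 was called lower in each genotype, against 5.56% of all genes in WT and 6.28% in p53het rats.

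Mitsui-7 raised most of these receptors in both genotypes, and Itgam most of all. In WT rats 6 of 9 were called higher than in WT controls and 0 lower, where 14% of all genes tested were called, 8.41% higher and 5.56% lower. Higher genes made up 60.2% of all calls there, but 43.2% with median scaling and 44.3% with quantile normalization. In the 6 called receptors the 6 exposed rats also lay above all 6 controls, which 4.52% of all genes did (2.89% lay wholly below). In p53het rats 5 of 9 were called higher and 0 lower, against 11.6% of all genes called, 5.29% higher and 6.28% lower; higher genes were 45.7% of all calls there and 55.3% with median scaling and 52.8% with the authors' table. The median log2 change of the 9 receptors was 1.04 in WT rats, against 0.03 over all genes, and 0.62 in p53het rats, against -0.02 over all genes. With NM-403, 3 receptors were called in WT rats, all higher (3.2% of all genes called, 2.3% higher, 0.903% lower). In p53het NM-403 rats limma called 0 of 9 (1.52% of all genes called, 1.27% higher), and 4 of 9 had an unadjusted p under 0.05. The median log2 change with NM-403 was 0.37 in WT rats, against -0.00 over all genes, and 0.35 in p53het rats, against -0.08 over all genes.

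**Figure D1:**
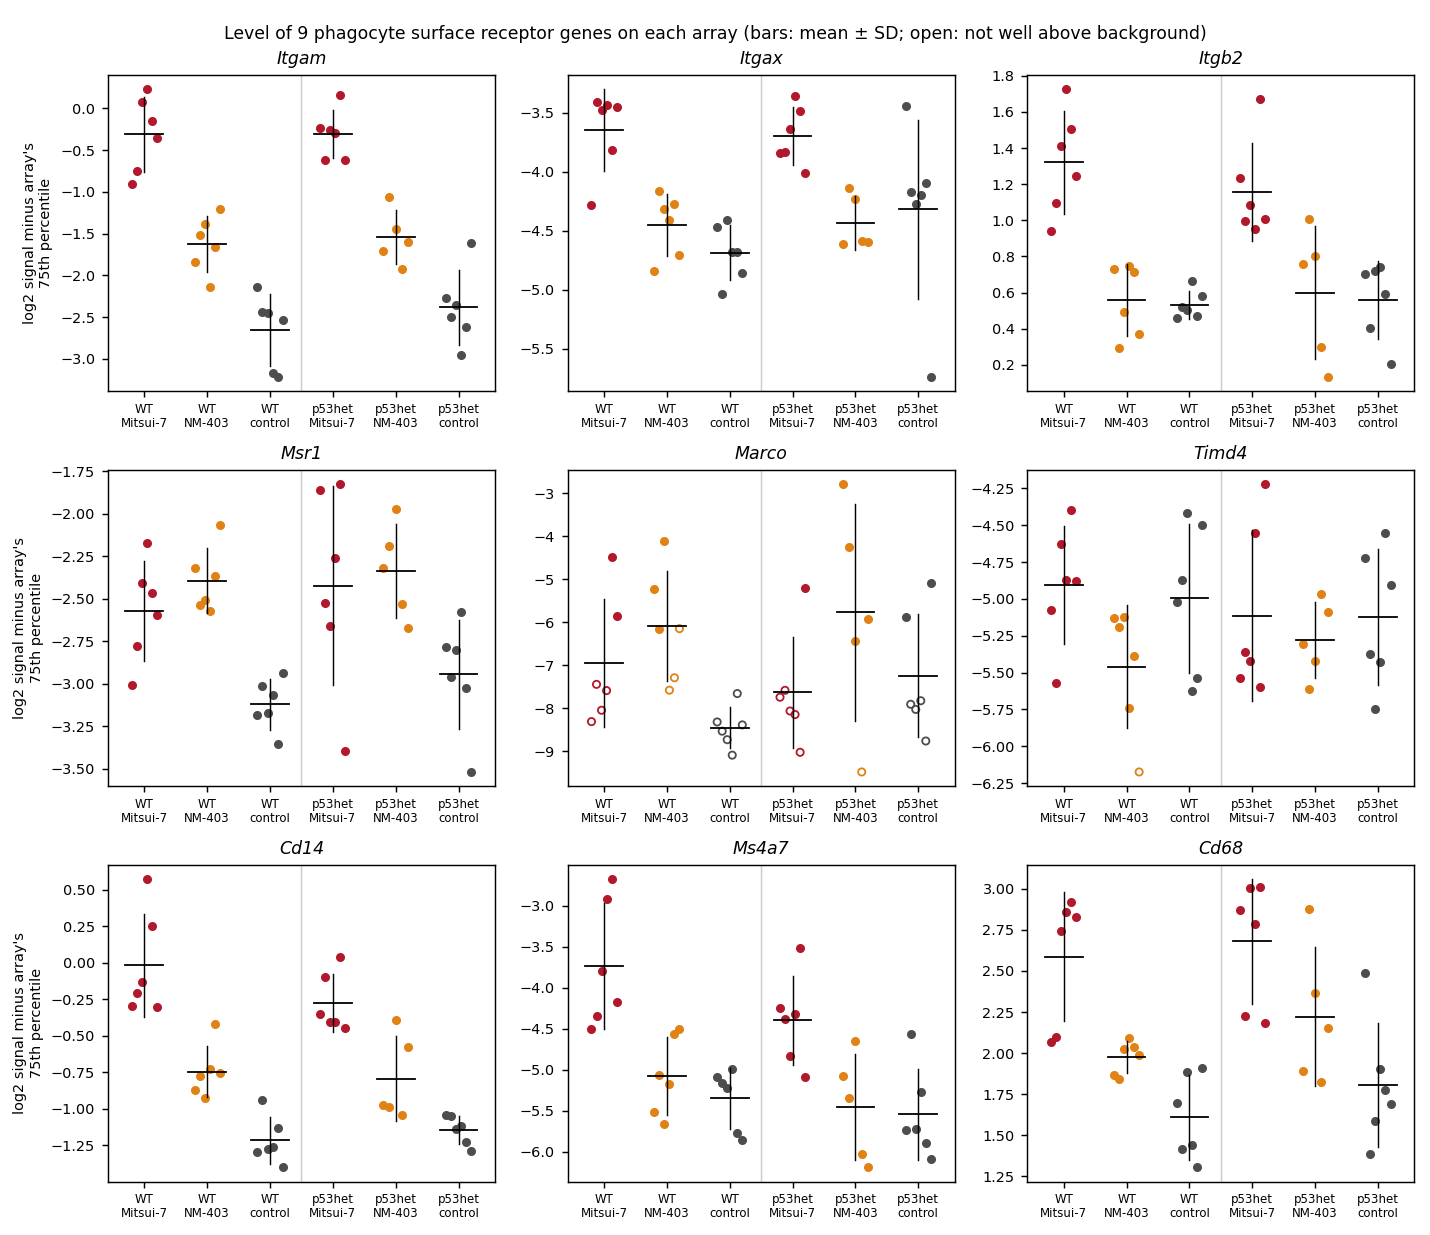
Level of each receptor on every array, as log2 signal minus the array's 75th percentile, for the 6 groups. Horizontal bars are group means and vertical bars 1 SD; open circles are arrays where the probe was not well above background, which for Marco is all 6 WT controls. Vertical scales differ between genes. Itgam stands highest under Mitsui-7, next under NM-403 and lowest in controls in both genotypes.

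The integrin alpha chain CD11b had the largest change. Itgam levels were -0.90 at the lowest, -0.26 at the median and 0.23 at the highest in WT Mitsui-7 rats, against -3.21, -2.49 and -2.14 in WT controls. No exposed rat reached down to a control. Itgam was 5.09-fold higher (log2 change 2.35 ± 0.22 SE, limma adjusted p = 2.45e-09). In p53het rats the levels were -0.62, -0.28 and 0.16 under Mitsui-7, against -2.95, -2.42 and -1.61 in p53het controls, again without overlap. The change there was 4.21-fold (log2 2.07 ± 0.22 SE, adjusted p = 4.38e-08).

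NM-403 gave a smaller change in the same gene. Itgam levels ran from -2.13 over a median of -1.59 to -1.20 in WT NM-403 rats, against -3.21, -2.49 and -2.14 in WT controls, so that the nearest rats of the groups were 0.01 apart. The change was 2.05-fold (log2 1.03 ± 0.22 SE, adjusted p = 0.00452). In the 5 p53het NM-403 rats Itgam was at -1.71, -1.06, -1.44, -1.92 and -1.59, against -2.95, -2.42 and -1.61 (lowest, median, highest) in p53het controls. Of these, 3 lay above every control, and the others lay below only control replicate 6, the highest. The log2 change of 0.84 ± 0.23 SE had an adjusted p of 0.0558. It passed the threshold under 7 of 11 alternatives, among them slide as a fixed block (adjusted p = 0.0315), and without control replicate 6 (0.99, adjusted p = 0.0143).

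Ordered by mean level, Itgam stood in steps by exposure. The means were -0.31 ± 0.45 in WT Mitsui-7 and -0.31 ± 0.29 in p53het Mitsui-7 (SD, n = 6 each), then -1.54 ± 0.32 in p53het NM-403 (n = 5) and -1.62 ± 0.33 in WT NM-403 (n = 6). Controls came last, with -2.38 ± 0.45 in p53het and -2.66 ± 0.43 in WT rats (n = 6 each). Neighbours within a step differed by less than 1 SD. The other Itgam probe, A_43_P15993, moved with the first (r = 0.931 over the 35 arrays, which share the same RNA). It gave log2 changes of 2.38 ± 0.29 SE for WT Mitsui-7 and 2.28 ± 0.29 for p53het Mitsui-7 (adjusted p = 6.02e-07 and 1.86e-06). For WT NM-403 it gave 0.94 ± 0.29, with an adjusted p of 0.0773 over all probes, and 1.12 ± 0.31 (0.0617) for p53het NM-403. On this probe WT control replicate 1 was at -3.06, while the other 5 WT controls lay between -5.86 and -4.75.

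Itgb2, the partner chain, was called under Mitsui-7 in both genotypes and under NM-403 in neither. Levels were 0.94, 1.33 and 1.73 (lowest, median, highest) in WT Mitsui-7 rats, against 0.46, 0.51 and 0.66 in WT controls, with no overlap. Itgb2 was 1.73-fold higher (log2 0.79 ± 0.14 SE, adjusted p = 0.000194). In p53het rats it was at 0.95, 1.04 and 1.67 under Mitsui-7, against 0.20, 0.65 and 0.74 in controls, 1.51-fold higher (log2 0.60 ± 0.14, adjusted p = 0.0049). Under NM-403 the levels were 0.29, 0.60 and 0.75 in WT rats, across the range of WT controls, with a log2 difference of 0.03 ± 0.14 (adjusted p = 0.962). The p53het NM-403 rats, at 0.76, 1.01, 0.80, 0.30 and 0.13, spread wider than p53het controls and averaged 0.04 ± 0.15 above them (adjusted p = 0.945).

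Itgax, the CD11c chain of macrophages and dendritic cells, rose under Mitsui-7 in WT rats. It stood at -4.28, -3.46 and -3.41 (lowest, median, highest) in WT Mitsui-7 rats, against -5.04, -4.68 and -4.41 in WT controls. All 6 exposed rats lay above the controls, replicate 1 by 0.13. The change was 2.06-fold (log2 1.04 ± 0.23 SE, adjusted p = 0.00147). With normexp background correction it was 0.66 ± 0.11 (adjusted p = 7.94e-05). In p53het rats the levels were -4.02, -3.74 and -3.36 under Mitsui-7, against -5.74, -4.18 and -3.44 in p53het controls, and the ranges overlapped because control replicate 1 was at -3.44. That difference, 0.62 ± 0.23, was not called (adjusted p = 0.0687), but passed with slide as a random block (adjusted p = 0.0387) and with array weights (0.0305). Control replicate 6, at -5.74, stood far below the other 5 controls, which lay between -4.27 and -3.44. Without it the difference was 0.34 ± 0.17 (adjusted p = 0.19), and without control replicate 1 it was 0.80 and called (adjusted p = 0.0138). NM-403 gave 0.24 ± 0.23 in WT rats (adjusted p = 0.725) and -0.11 ± 0.24 in p53het rats (0.894).

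**Figure D2:**
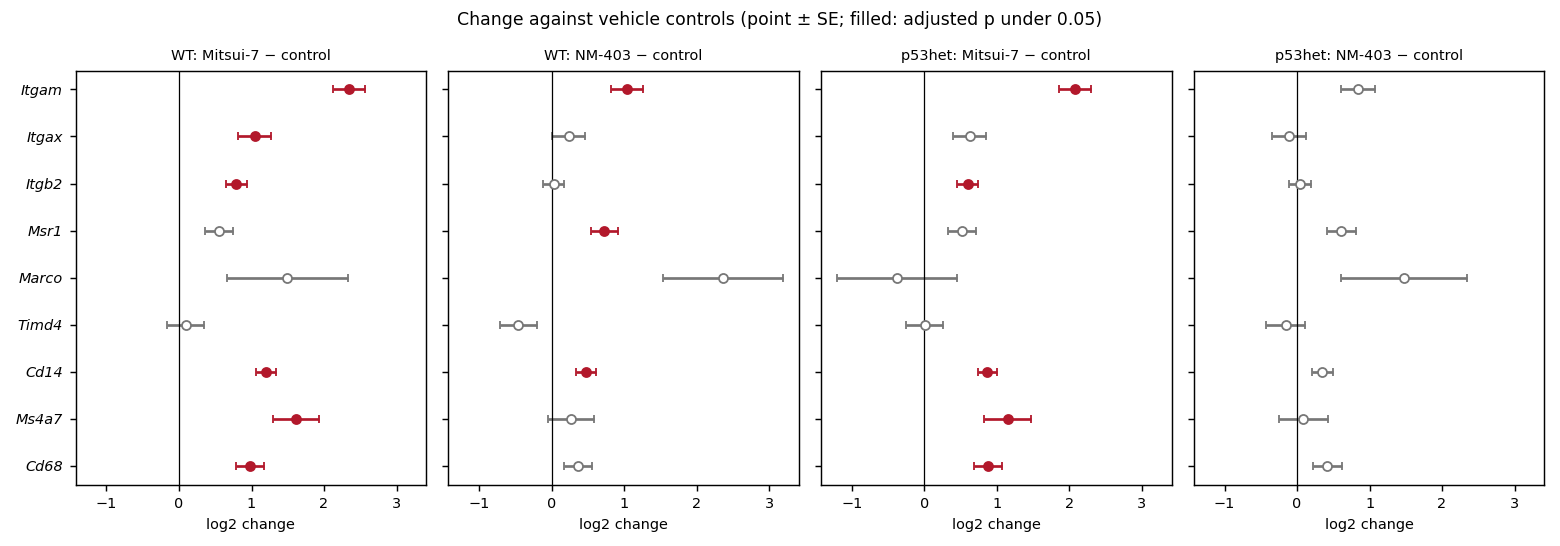
Log2 change of each receptor against controls of the same genotype, with SE, for the 4 exposures. Filled points have an adjusted p under 0.05: 6 receptors in WT Mitsui-7, 3 in WT NM-403, 5 in p53het Mitsui-7 and 0 in p53het NM-403. Marco has the widest error, 0.83 to 0.87, and its WT values are set against controls not well above background.

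Msr1, the scavenger receptor SR-A, rose under NM-403 in WT rats. It ran from -2.57 over -2.44 to -2.06 under NM-403, against -3.36, -3.12 and -2.93 in WT controls. The groups did not overlap, and the smallest gap was 0.36. Msr1 was 1.65-fold higher (log2 0.73 ± 0.19 SE, adjusted p = 0.027). That call was lost on leaving out WT control replicate 1, 3 or 5, or WT NM-403 replicate 1, 5 or 6, with adjusted p-values up to 0.0889, while the log2 change stayed between 0.66 and 0.76. The second Msr1 probe, shown above, gave 0.63 ± 0.20 (adjusted p = 0.0854 over all probes). In WT rats 4 receptors did not overlap between NM-403 and control, namely Itgam, Msr1, Cd14 and Marco (the last against controls not well above background), which 1.77% of all genes did upward and 0.866% downward.

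In the other exposed groups the log2 difference of Msr1 was 0.52 to 0.61 and missed the threshold. WT Mitsui-7 rats were at -3.01, -2.53 and -2.17 (lowest, median, highest), against -3.36, -3.12 and -2.93 in WT controls. Of these, 5 lay above all controls, and the log2 change was 0.55 ± 0.19 SE (adjusted p = 0.0505). It was called under 5 of 10 alternatives, and without WT control replicate 6, WT Mitsui-7 replicate 1 or WT Mitsui-7 replicate 2. In p53het rats Mitsui-7 gave -3.40, -2.39 and -1.83, against -3.52, -2.88 and -2.58 in controls (0.52 ± 0.19, adjusted p = 0.0718). Replicate 6 of p53het Mitsui-7 was the low one, and without it the change was 0.72 (adjusted p = 0.00352). The 5 p53het NM-403 rats were at -2.32, -2.19, -1.97, -2.53 and -2.67, 4 of them above every p53het control (0.61 ± 0.20, adjusted p = 0.14). The 4 exposed groups had means from -2.57 to -2.34 with SDs of 0.19 to 0.59, so that their order is within the spread.

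Marco, the other class A scavenger receptor, was near the limit of detection. It was well above background on 12 of 35 arrays: 2 of 6 in WT Mitsui-7, 3 of 6 in WT NM-403, 0 of 6 in WT controls, 1 of 6 in p53het Mitsui-7, 4 of 5 in p53het NM-403 and 2 of 6 in p53het controls. Levels were -7.58, -6.16 and -4.13 (lowest, median, highest) in WT NM-403 rats, against -9.09, -8.46 and -7.66 in WT controls, without overlap. Against the lowest signal that counted as above background, Marco was at least 2.42-fold higher in WT NM-403 rats than in WT controls. The limma fit gave an adjusted p of 0.126. Such a bound is not strict, as a spot brighter than that signal can still fail to count. In WT NM-403 replicate 6 Marco was at -6.15 and did not count, while the array's lowest counted signal was -6.32. The exposed mean also includes arrays where Marco was not well above background, and the bound has no SE. The bound was 1.84-fold to 2.97-fold without each WT NM-403 rat in turn. The fit passed with slide as a random block (adjusted p = 0.0435) and with these groups alone (0.0354). WT Mitsui-7 rats lay at -8.31, -7.52 and -4.48, at least 1.33-fold above WT controls (adjusted p = 0.25). The highest was replicate 5. Without it the mean of the WT Mitsui-7 rats, -7.45, lay below the limit of -7.36 set by the controls, and no bound remained. The p53het NM-403 rats were spread most widely, at -2.79, -4.24, -6.43, -9.48 and -5.91, against -8.76, -7.86 and -5.09 in controls (1.47 ± 0.87, adjusted p = 0.531). Without replicate 1 of p53het NM-403 that value was 0.73, and without replicate 4 it was 2.40 (adjusted p = 0.172). Mitsui-7 gave -0.38 ± 0.83 in p53het rats (adjusted p = 0.838).

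Timd4, the phosphatidylserine receptor, was not called in any comparison on any of its 3 probes. Levels were -5.57, -4.88 and -4.40 (lowest, median, highest) in WT Mitsui-7 rats and -6.17, -5.29 and -5.13 in WT NM-403 rats, against -5.62, -4.95 and -4.42 in WT controls. The groups overlapped, with log2 differences of 0.09 ± 0.26 SE (adjusted p = 0.877) and -0.46 ± 0.26 (0.421). In p53het rats the differences were 0.01 ± 0.26 under Mitsui-7 (adjusted p = 0.992) and -0.16 ± 0.27 under NM-403 (0.872). The probes disagreed in part: A_44_P398837, well above background on 25 arrays, correlated with the first at only r = 0.364 and gave 0.49 ± 0.30 for WT Mitsui-7 and -0.57 ± 0.30 for p53het Mitsui-7 (adjusted p = 0.319 and 0.252).

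Cd14, the endotoxin co-receptor, was called in WT Mitsui-7, p53het Mitsui-7 and WT NM-403 rats. Levels were -0.30, -0.17 and 0.57 (lowest, median, highest) in WT Mitsui-7 rats, against -1.40, -1.27 and -0.94 in WT controls. The groups did not overlap, and Cd14 was 2.29-fold higher (log2 1.20 ± 0.13 SE, adjusted p = 7.39e-08). In p53het rats it was at -0.44, -0.38 and 0.04 under Mitsui-7, against -1.29, -1.13 and -1.04 in p53het controls, 1.82-fold higher without overlap (log2 0.87 ± 0.13, adjusted p = 2.81e-05). Under NM-403, WT rats were at -0.93, -0.76 and -0.42, and the lowest of them lay 0.01 above the highest WT control. The change was 1.39-fold (log2 0.47 ± 0.13, adjusted p = 0.0419). Leaving out any 1 of 9 of the 12 rats (all but WT control replicate 2 and WT NM-403 replicates 1 and 3) ended that call, with adjusted p-values up to 0.12 and log2 changes from 0.41 to 0.49, as did normexp correction (0.0531) and no filter on dim probes (0.0713). In the 5 p53het NM-403 rats Cd14 was at -0.97, -0.99, -0.39, -1.04 and -0.57, 4 of them above every control, with a log2 change of 0.35 ± 0.14 (adjusted p = 0.271).

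Ms4a7, a marker of tissue macrophages, rose 3.05-fold under Mitsui-7 in WT rats (log2 1.61 ± 0.32 SE, adjusted p = 0.000576). Levels were -4.50, -3.99 and -2.68 (lowest, median, highest) in WT Mitsui-7 rats, against -5.86, -5.19 and -4.99 in WT controls. The groups did not overlap, and replicates 4 and 5 were the highest, at -2.92 and -2.68. In p53het rats the levels were -5.09, -4.35 and -3.52 under Mitsui-7, against -6.09, -5.73 and -4.56 in controls. The groups overlapped, and the change was 2.21-fold (log2 1.15 ± 0.32, adjusted p = 0.016). That call was lost without replicate 5 of p53het Mitsui-7 (0.97, adjusted p = 0.0594) and with normexp correction (0.52 ± 0.21, adjusted p = 0.136), which also lowered the WT value to 0.94 ± 0.21 (0.00212). NM-403 gave 0.27 ± 0.32 in WT rats (adjusted p = 0.795) and 0.09 ± 0.34 in p53het rats (0.947).

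Cd68, the lysosomal glycoprotein, was at 2.07, 2.79 and 2.92 (lowest, median, highest) in WT Mitsui-7 rats, against 1.30, 1.57 and 1.91 in WT controls. The groups did not overlap, although replicates 1 and 2 of the exposed rats, at 2.07 and 2.10, stood below the other 4. The change was 1.97-fold (log2 0.98 ± 0.19 SE, adjusted p = 0.000506). In p53het rats it was at 2.18, 2.83 and 3.01 under Mitsui-7, against 1.38, 1.73 and 2.49 in controls, where replicate 1 was the highest and lay among the exposed rats. The change was 1.84-fold (log2 0.88 ± 0.19, adjusted p = 0.00217). Under NM-403 the differences were 0.37 ± 0.19 in WT rats (adjusted p = 0.381) and 0.42 ± 0.20 in p53het rats (0.406). In p53het rats 3 of the 9 receptors, Itgam, Itgb2 and Cd14, did not overlap between Mitsui-7 and control, which 2.73% of all genes did upward and 2.23% downward. In p53het rats under NM-403 0 receptors were free of overlap with control, against 1.16% of all genes upward and 0.842% downward.

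Arrays of different groups had residuals that correlated at a mean r of 0.239 on the same slide and -0.056 on different slides, so each difference was also taken between rats on the same slide. For Mitsui-7 in WT rats, Itgam, Itgax, Itgb2, Msr1, Cd14, Ms4a7 and Cd68 were higher in exposed than in control rats on all 4 slides that held both groups. Itgam differed by 1.40 to 3.40 and Cd14 by 0.82 to 1.83 on the log2 scale. In p53het rats the same was true of Itgam, Itgax, Itgb2, Cd14, Ms4a7 and Cd68 on all 5 slides, with Itgam at 1.68 to 2.53, while Msr1 was higher on 4 of 5. For NM-403 in WT rats, Itgam (0.25 to 1.33), Msr1 (0.65 to 0.87), Cd14 (0.26 to 0.72) and Cd68 (0.08 to 0.48) were higher on all 5 slides, and Itgb2 on 2 of 5. Marco is left out of this reading in WT rats, since no WT control was well above background. In p53het rats under NM-403, Itgam, Msr1 and Cd14 were higher on all 4 slides. Most slides held 1 rat of a group.

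**Figure D3:**
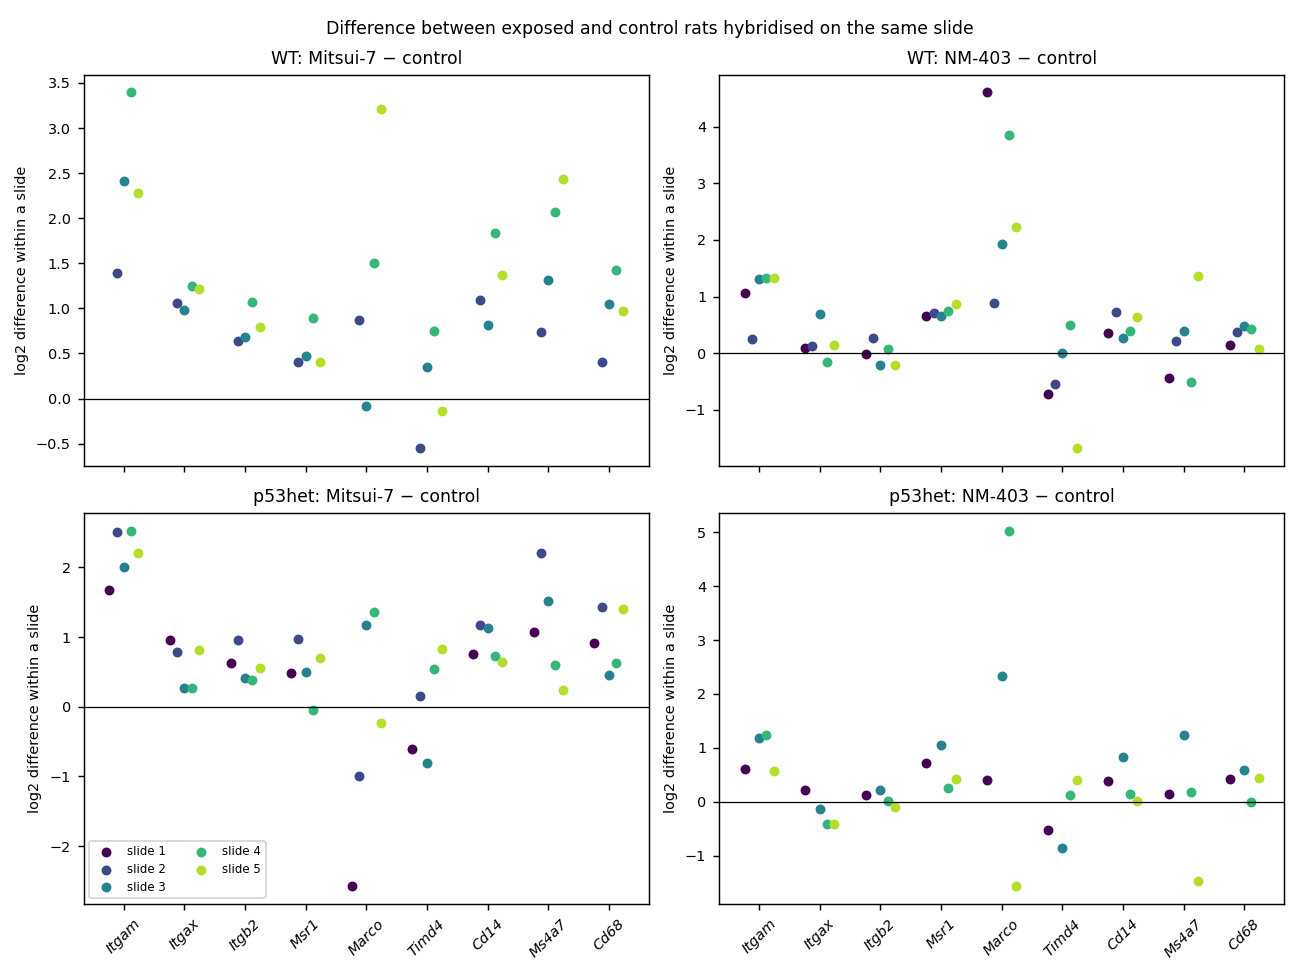
Log2 difference between exposed and control rats that lay on the same slide, for each receptor; each point is 1 slide, coloured by slide, and vertical scales differ between panels. Under Mitsui-7 all points of Itgam, Itgax, Itgb2, Cd14, Ms4a7 and Cd68 lie above 0 in both genotypes. Timd4 points fall on both sides of 0 in all panels, and Marco points in WT rats are differences from controls not well above background.

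Mitsui-7 and NM-403 were also set directly against each other. In WT rats 5 of 9 were called higher under Mitsui-7 than under NM-403 and 0 lower, against 3.32% of all genes called, 2.77% higher and 0.552% lower. Higher genes were 83.4% of all calls there and 66.4% with median scaling. Itgam was 2.48-fold higher (log2 difference 1.31 ± 0.22 SE, adjusted p = 0.000222), Itgb2 1.70-fold (0.76 ± 0.14, 0.000953) and Cd14 1.66-fold (0.73 ± 0.13, 0.000687). In these 3 the WT Mitsui-7 rats all lay above the WT NM-403 rats, which 1.92% of all genes did (0.49% the other way). Ms4a7 was 2.53-fold higher (1.34 ± 0.32, adjusted p = 0.0113), a call lost without WT Mitsui-7 replicate 5 (1.13, adjusted p = 0.0518) and with normexp correction (0.74 ± 0.21, 0.0594) or only these groups (0.0707). Itgax was 1.75-fold higher (0.81 ± 0.23, adjusted p = 0.0384), and without any 1 of 9 of the 12 rats (all but WT Mitsui-7 replicate 1 and WT NM-403 replicates 2 and 5) its adjusted p was above the threshold, at most 0.103. The Itgax call was also lost with quantile normalization (0.109), median scaling (0.0913) and no filter (0.0572), while normexp correction kept it at 0.43 ± 0.11 (0.0291). Cd68 missed the threshold (0.61 ± 0.19, adjusted p = 0.0788) but passed with slide as a fixed block (0.68, adjusted p = 0.0233) or a random block (0.67, 0.0174). The scavenger receptors had the other sign, Msr1 at -0.18 ± 0.19 (0.804) and Marco at -0.87 ± 0.83 (0.764). Timd4 was not called, at 0.55 ± 0.26 (adjusted p = 0.322), with 5 of 6 WT Mitsui-7 rats above all WT NM-403 rats. Its other probes gave 0.63 ± 0.30 (0.35 over all probes) and 0.62 ± 0.22 (0.132).

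In p53het rats 1 of 9 was called between the nanotubes, against 1.36% of all genes called, 1.09% higher and 0.278% lower. Itgam was 2.35-fold higher under Mitsui-7 than under NM-403 (log2 difference 1.23 ± 0.23 SE, adjusted p = 0.00145). Its second probe gave 1.16 ± 0.31, with an adjusted p of 0.0533 over all probes. Itgam and Itgax did not overlap between the 6 Mitsui-7 and the 5 NM-403 rats, which 1.52% of all genes did (0.527% the other way). Itgax (0.74 ± 0.24, adjusted p = 0.142), Itgb2 (0.56 ± 0.15, 0.0558), Cd14 (0.52 ± 0.14, 0.056) and Ms4a7 (1.06 ± 0.34, 0.134) were not called. Array weights brought Itgax, Itgb2, Cd14 and Ms4a7 past the threshold (adjusted p = 0.00449 to 0.00958). These comparisons share their exposed rats with those against control.

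**Figure D4:**
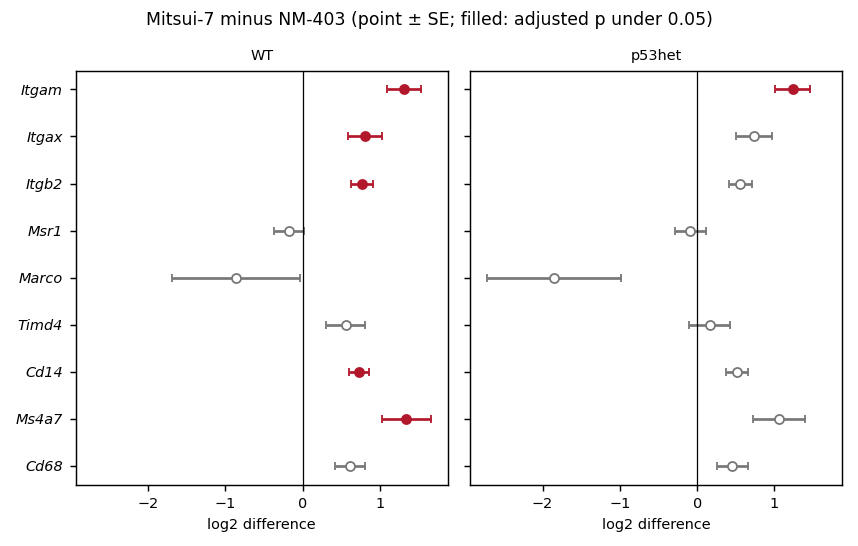
Log2 difference of each receptor between Mitsui-7 and NM-403 rats, with SE, in each genotype; points right of 0 are higher under Mitsui-7. Filled points have an adjusted p under 0.05: Itgam, Itgax, Itgb2, Cd14 and Ms4a7 in WT rats, and Itgam in p53het rats.

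Genotype made no difference that passed the test. Between p53het and WT controls 0 of 9 receptors were called and 0 had an unadjusted p under 0.05 (limma), with log2 differences from -0.20 (Ms4a7) to 0.37 (Itgax) for the receptors other than Marco. The mean of Marco in p53het controls, where 2 of 6 arrays were well above background, lay 1.08-fold above the limit set by WT controls. The limma fit gave an adjusted p = 1, and no bound remained without p53het control replicate 1 or 6. Of all genes 0% were called, and 0 receptors were free of overlap (0.0735% of all genes upward, 0.0204% downward). The change under Mitsui-7 in p53het rats minus that in WT rats was -0.27 ± 0.31 SE for Itgam, -0.33 ± 0.19 for Cd14, -0.46 ± 0.45 for Ms4a7 and -0.42 ± 0.32 for Itgax on the log2 scale, each with an adjusted p of 1. The corresponding value for NM-403 was -0.20 ± 0.32 for Itgam and -0.12 ± 0.28 for Msr1 (adjusted p = 0.983 each). For both interactions 0 of 9 receptors and 0% of all genes were called, and 0 receptors had an unadjusted p under 0.05 on the probe of highest mean. The Timd4 probe A_44_P398837 was at -1.06 ± 0.43 for Mitsui-7 (limma, unadjusted p = 0.0182) and was not called. With normexp correction Itgax was at -0.37 ± 0.16 for Mitsui-7 and -0.48 ± 0.16 for NM-403, also not called. A p that misses the threshold does not show that the genotypes responded alike.

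Partners of the receptors were read from related lists. Over all genes 14% were called in WT Mitsui-7, 11.6% in p53het Mitsui-7, 3.2% in WT NM-403 and 1.52% in p53het NM-403 rats. A count of 1 in a short list therefore says little about that list. Of 8 measured partners, ligands and activators of the beta 2 integrins, 2 were called higher and 2 lower in WT Mitsui-7 rats than in WT controls (list median 0.18). Fermt3, which encodes kindlin-3, the activator of leukocyte integrins, rose by 0.71 ± 0.13 SE (adjusted p = 0.000139) and Plaur, the urokinase receptor, by 0.77 ± 0.25 (0.037). The endothelial ligand genes Icam2 and Icam1 fell by 0.85 and 0.34 on the log2 scale (adjusted p = 1.63e-05 and 0.00537). The other alpha chains that pair with CD18 were not called: Itgal was at 0.25 ± 0.20 (0.463) and Itgad at 0.10 ± 0.20 (0.815). In p53het Mitsui-7 rats the list had 1 higher, Fermt3, and 1 lower, Icam2. Under NM-403 1 of 8 was called higher in each genotype, in both cases C3, the complement protein whose fragments CD11b binds, at 0.96 ± 0.17 in WT (0.000868) and 0.84 ± 0.18 in p53het rats (0.00957).

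Of 9 measured partners of CD14 in endotoxin recognition, 4 were called higher and 0 lower in WT Mitsui-7 rats (list median 0.28). They were Cd180, a TLR4-like receptor (1.39 ± 0.19 SE, adjusted p = 2.97e-06), Tlr2 (0.70 ± 0.16, 0.00258), Ly96, the MD-2 chain of the TLR4 complex (0.58 ± 0.18, 0.0284), and Lbp, the carrier that loads CD14 (0.48 ± 0.13, 0.0112). In p53het Mitsui-7 rats 3 were higher, Cd180, Tlr2 and Lbp. Under NM-403 Lbp and Cd180 were called higher in WT rats and Lbp alone in p53het rats (0.53 ± 0.14, adjusted p = 0.0364).

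Other scavenger, lectin and dead-cell receptors changed in part. Of 23 such receptors measured, 8 were called higher and 1 lower in WT Mitsui-7 rats and 7 higher and 0 lower in p53het Mitsui-7 rats, with list medians of 0.34 and 0.22. In WT Mitsui-7 rats the largest were Trem2, a lipid receptor of macrophages (2.20 ± 0.30 SE, adjusted p = 2.89e-06), Clec4e, the lectin Mincle (2.14 ± 0.32, 1.44e-05), Timd2 (1.42 ± 0.27, 0.000426) and Havcr1, the TIM-1 relative of TIM-4 (1.37 ± 0.33, 0.00377). Under NM-403 1 of 23 was called in each genotype, Trem2 in WT (1.64 ± 0.30, 0.000993) and Havcr2 in p53het rats (1.30 ± 0.34, 0.0469). Of all genes 3.2% were called in WT and 1.52% in p53het NM-403 rats. Of 6 Fc receptor genes 3 were higher in WT Mitsui-7 rats, Fcgr2b, Fcgr1a and the signalling chain Tyrobp. In p53het Mitsui-7 rats the same 3 were higher and Fcgr3a was lower by -0.55 ± 0.17 (0.0321). In NM-403 rats Fcgr2b was higher in WT (0.68 ± 0.17, adjusted p = 0.0231) and Fcgr3a lower in p53het rats (-0.75 ± 0.18, 0.0207).

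Downstream of the receptors, 7 of 11 kinases and adaptors of phagocytosis were called higher in WT Mitsui-7 rats and 0 lower, by 0.28 to 0.63 on the log2 scale. Card9 (0.63 ± 0.19 SE, adjusted p = 0.0198), Btk (0.55 ± 0.18, 0.0416), Fgr (0.54 ± 0.11, 0.000833) and Syk (0.48 ± 0.12, 0.0057) were the largest. The count was 3 without WT Mitsui-7 replicate 4 or 5, 2 with median scaling, and 4 with the authors' table or with only these groups. Fgr alone was higher in p53het Mitsui-7 rats, where the count was 1 to 2 without each rat, 5 with either slide block, 4 with array weights and 0 with only these groups. The genotype by Mitsui-7 interaction called 0 of 11. Under NM-403 0 of 11 were called by limma in either genotype, and 1 in each with either slide block. Of 8 other MS4A family genes measured, 3 were higher in WT Mitsui-7 rats, Ms4a6a (1.36 ± 0.25, 0.000241), Ms4a2, the beta chain of the IgE receptor of mast cells (1.34 ± 0.30, 0.0019), and Ms4a10. Ms4a6a and Ms4a2 were also higher in p53het Mitsui-7 rats, and Ms4a4a was lower there (-1.15 ± 0.32, 0.0166), and under NM-403 0 of 8 were called. None of the 3 lysosomal membrane genes of the LAMP family that were measured was called in any of the 4 exposures, while Cd68 was called under Mitsui-7 in both genotypes.

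**Figure D5:**
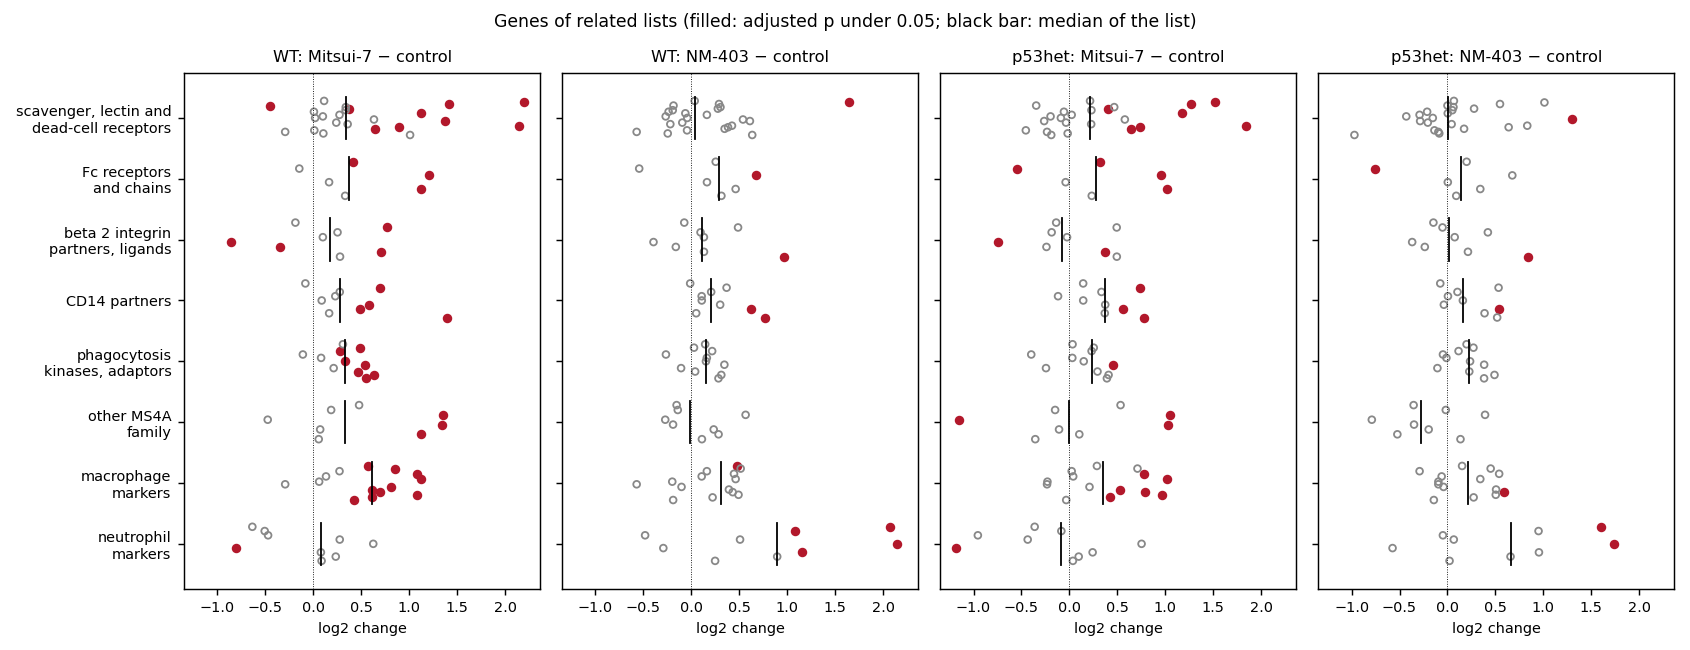
Log2 change of every measured gene of 8 related lists in the 4 exposures; each point is a gene, filled where its adjusted p was under 0.05, and the black bar is the median of the list. Macrophage markers lie to the right under Mitsui-7 in WT rats (10 of 14 called higher), and neutrophil markers under NM-403 in both genotypes.

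Markers of cell types that can carry these receptors are given beside them. The shares of all genes called were 14% in WT Mitsui-7, 11.6% in p53het Mitsui-7, 3.2% in WT NM-403 and 1.52% in p53het NM-403 rats. Of 14 macrophage and monocyte markers outside the 9 receptors, 10 were called higher in WT Mitsui-7 rats, 1 in WT NM-403, 6 in p53het Mitsui-7 and 1 in p53het NM-403 rats, and 0 lower. Their summed level was 6.57 to 6.97 in WT Mitsui-7 rats, against 6.51 to 6.66 in WT controls, and 6.74 to 7.07 in p53het Mitsui-7 rats, against 6.47 to 7.26 in p53het controls. Csf1r, the growth factor receptor that all macrophages carry, was not called in any of these comparisons, at 0.06 ± 0.09 SE in WT Mitsui-7 (adjusted p = 0.737) and -0.23 ± 0.09 in p53het Mitsui-7 rats (0.0994). Ptprc, the common leukocyte gene, rose in WT Mitsui-7 rats (0.36 ± 0.11, 0.0319) and was at 0.02 ± 0.11 in p53het Mitsui-7 rats (0.942). Of 7 alveolar macrophage markers 2 were higher and 1 lower under Mitsui-7 in each genotype, with Fabp4 at 2.53 ± 0.29 in WT (1.5e-07) and 3.15 ± 0.29 in p53het rats (2.75e-09). The list median was -0.29 in WT and -0.06 in p53het Mitsui-7 rats. The summed level of the list was 3.27 to 3.66 in WT Mitsui-7 rats, against 3.40 to 3.65 in WT controls. In p53het rats it was 3.42 to 3.69 under Mitsui-7, against 3.31 to 3.67 in controls.

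Neutrophils also carry CD11b and CD18. Of all genes 2.3% were called higher in WT NM-403 and 1.27% in p53het NM-403 rats. Under Mitsui-7 5.56% of all genes were called lower in WT and 6.28% in p53het rats. Of 9 neutrophil markers measured, 4 were higher in WT NM-403 rats, among them Il1r2 (2.15 ± 0.28 SE, adjusted p = 1.09e-05) and S100a9 (2.07 ± 0.30, 7.2e-05), and 2 in p53het NM-403 rats. The WT count was 2 on leaving out any 1 of WT control replicates 1 to 5 or WT NM-403 replicate 1, 2 or 6, with no filter and with only these groups. Under Mitsui-7 0 of 9 were higher and 1, the formyl peptide receptor Fpr1, fell by 0.81 in WT and by 1.18 in p53het rats. The summed neutrophil level was 3.17 to 4.57 in WT NM-403 rats and 0.83 to 2.10 in WT Mitsui-7 rats, against 1.51 to 3.00 in WT controls. It was 3.22 to 4.28 in p53het NM-403 rats and 1.42 to 2.84 in p53het Mitsui-7 rats, against 1.87 to 2.84 in p53het controls. Of 6 dendritic cell markers 3 were higher in WT Mitsui-7 rats and 2 higher and 1 lower in p53het Mitsui-7 rats. Of 3 eosinophil markers 1, Ccr3, was higher in WT Mitsui-7 rats (0.98 ± 0.27, adjusted p = 0.0128) and 0 were called in the other exposures. The Ccr3 call was lost without WT Mitsui-7 replicate 5 and with only these groups. The summed eosinophil level was -2.20 to -1.29 in WT Mitsui-7 rats, against -2.50 to -1.74 in WT controls. Of 4 genes of all leukocytes 3 were higher in WT Mitsui-7 and 1 in p53het Mitsui-7 rats.

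Few lymphocyte markers were called in p53het Mitsui-7 rats, where 5.29% of all genes were called higher and 6.28% lower. Of 10 T and NK cell markers 1 was higher there, Cd4, which rat macrophages also carry (0.54 ± 0.14 SE, adjusted p = 0.011), and 2 lower, Cd8a (-0.42 ± 0.14, 0.0401) and Prf1 (-0.69 ± 0.17, 0.00758), with a list median of -0.41. The lower count was 1 to 3 without each rat, 4 with either slide block or array weights and 0 with only these groups. Of the 6 B cell markers 0 were called higher and 1 lower there, with a list median of -0.42. The summed T and NK cell level was 1.60 to 2.39 in p53het Mitsui-7 rats, against 2.02 to 2.65 in p53het controls, and the summed B cell level was 0.14 to 1.16, against 0.59 to 1.58. In WT Mitsui-7 rats 2 of 10 T and NK cell markers were higher, Klrk1 and Cd4, and 0 of 6 B cell markers were called. Of all genes 8.41% were called higher there. The T and NK cell count there was 0 with median scaling and 1 to 2 without each rat. The genotype by Mitsui-7 interaction called no gene of either list, and neither list had a call under NM-403. The part of each cell type in the receptor values was not tested.

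For each receptor the genes most like it over the 35 arrays were taken from 16424 genes with a symbol, as a description of arrays that share slides and groups. Nearest to Itgam were LOC103691483 (r = 0.951), Matk (0.945) and Aqp3 (0.94). Nearest to Cd68 were Gpnmb (0.957), Sgpl1 (0.956) and Tgfbr1 (0.942), and with group means removed the r for Sgpl1 was still 0.919. Itgb2 lay nearest to Cybb (0.923), Olr1 (0.898) and Gm2a (0.889), and Cd14 to Slamf9 (0.928), Cst7 (0.924) and P2ry6 (0.921). Ms4a7 lay nearest to Ptpro (0.903), Abcb4 (0.885) and Tbxas1 (0.88), and Itgax to Tgfb1 (0.814), Tmem176a (0.783) and Gpnmb (0.775). The genes nearest to Msr1 were RGD1305807 (0.866), Cftr (0.832) and Lbp (0.83). Marco and Timd4 had no neighbour above 0.658 (Slc3a1) and 0.685 (Fbln1). Among the receptors, Itgam and Cd14 correlated at 0.865, which was 0.228 with group means removed. For Cd14 and Ms4a7 the values were 0.839 and 0.65.

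Promoters of the receptors were read, with the motif chosen after the values were seen, for GAGGAA or its reverse complement TTCCTC, the core of sites for PU.1, the transcription factor encoded by Spi1, with overlap counted. Windows were 250 bases before to 50 after the start position listed for each promoter (GRCr8). Such a position need not be the gene start in RefSeq. For Itgax, Marco and Cd14, 0 bases of the window lay before the annotated gene, so these windows did not reach beyond its start. The Itgax and Marco windows lay far inside the gene. At least 1 match stood in 4 of the 7 receptor windows available, Itgam, Marco, Cd14 and Cd68, against 27.6% of all 33469 windows. The matches of Marco and Cd14 lay inside the annotated gene. Spi1 itself rose in WT Mitsui-7 (0.57 ± 0.13 SE, adjusted p = 0.0032) and WT NM-403 rats (0.47 ± 0.13, 0.0417). Its values in p53het rats are not reported here. Whether Spi1 or the motif bears on the receptor levels was not tested. A match is a stretch of letters and says nothing of binding. The stretches before the annotated gene start are shown for Itgam (chr1:192089342-192089495, plus strand) and Cd68 (chr10:54882442-54882691, minus strand), with matches in capitals; the remaining matches of each window lie outside the stretch shown.
Itgam: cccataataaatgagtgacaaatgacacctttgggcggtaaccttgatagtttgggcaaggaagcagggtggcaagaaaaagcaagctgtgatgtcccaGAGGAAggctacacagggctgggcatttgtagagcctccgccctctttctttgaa
Cd68: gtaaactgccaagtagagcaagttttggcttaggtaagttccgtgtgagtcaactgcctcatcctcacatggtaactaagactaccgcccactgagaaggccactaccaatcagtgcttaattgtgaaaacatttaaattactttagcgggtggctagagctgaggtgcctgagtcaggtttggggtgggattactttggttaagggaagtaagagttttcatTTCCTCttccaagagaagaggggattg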

How the data were processed

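Arrays were Agilent one-colour rat arrays, each hybridised with Cy3-labelled RNA from the lobe of a separate rat. The authors deposited scanner files whose processed signal is a background-corrected intensity on a linear scale. The submitters' processing notes name Agilent Feature Extraction 12.0.1.1. A second table deposited by the authors gives log2 values of 11555 probes, with every probe median-centred across the arrays. Column medians there run from -0.0827 to 0.0691, no source used here states the filter behind it, and it includes 4 of the 13 receptor probes (Cd14, Cd68, Itgam and Itgb2). Probe positions and sequences are per the file headers and columns (build rn4).

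Control spots (4259 per array) were dropped and outlier spots set to missing, none of them a receptor's. Log2 signal minus the array's 75th percentile was averaged over the spots of a probe. A gene was represented by its probe of highest mean and was kept if that probe exceeded background clearly on 5 or more arrays and had values on 3 or more arrays in every group. The 24475 genes kept were fitted with a mean per group in limma 3.58.1 (R 4.3.3; package data.table, version 1.17.8), with Benjamini-Hochberg adjustment over all genes in each comparison and a threshold of 0.05. Errors after ± are limma's SE unless SD is written. The number of arrays limits the precision. The fit was tested on simulated data with known changes.

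All 9 receptors are named in every comparison, with up to 4 called genes of a related list by size of change, the 3 genes with the highest r to each receptor, and Csf1r and Ptprc; some further genes of that rule are not reported here. Itgal, Itgad and, in WT Mitsui-7 rats, Spi1 stand outside that rule and were named after their values were seen. The receptors and lists were chosen with earlier results of these data known. Alternatives were quantile, median and normexp (offset 50) processing, the authors' values, slide as a fixed or random block, a replicate block, no filter, a stricter filter, each probe on its own, array weights, leaving out each rat, and fitting only the groups compared. Same-numbered arrays of different groups had residuals that correlated at a mean r of 0.03 (85 pairs, -0.574 to 0.693), so the numbers do not pair the rats. For the bound on Marco, each WT control array took its lowest clearly detected signal wherever Marco itself was dimmer, and the bound was repeated without each rat of the brighter group, a step chosen after seeing the data.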

Additional observations from a re-analysis of the deposited data

Results flagged for a closer look

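On 1 array a value stood far from the rest of its group. Among 78 sets of values, 13 probes in 6 groups, 1 had an end value whose gap to its neighbour was beyond Dixon's critical value. Chance exceeds that value in about 1 of 20 sets, so more than 1 of the 78 would do so by chance. The flagged value was Itgax in p53het control replicate 6, at -5.74, with the other 5 controls between -4.27 and -3.44. The same rat, whose array had the lowest weight of all (0.294), had the highest Itgam of its group on the first probe, at -1.61. On the second probe this rat had the lowest, at -5.28. Without it, the Itgax change under Mitsui-7 in p53het rats minus that in WT rats was -0.70 ± 0.23 SE and the corresponding value for NM-403 was -0.63 ± 0.24, with limma adjusted p-values of 1 and 0.853. The cause was not tested.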

How the results depend on the processing

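No receptor value called here changed sign under any alternative. The number of receptors called in WT Mitsui-7 against WT control was 4 (the authors' table) to 7 and 6 to 7 without each rat in turn, and in p53het Mitsui-7 against p53het control 4 to 7, and 4 to 6 without each rat. In WT NM-403 against WT control the count was 4 with a random slide block or only these groups, which gain Marco, 2 with normexp, no filter or the authors' table, 1 where each probe was read on its own, and 1 to 3 without each rat, with 1 on leaving out WT control replicate 1, 3 or 5 or WT NM-403 replicate 5 or 6. In p53het NM-403 against p53het control it was 1, in place of 0, with quantile normalization, median scaling, the authors' log2 table, a fixed or random slide block, the stricter filter and array weights, and 0 to 1 without each rat. In WT Mitsui-7 against WT NM-403 it was 6 with a fixed or random slide block, 4 with quantile normalization, median scaling, normexp, no filter or only these groups, 3 with the authors' table, which holds 4 of the receptors, and 3 to 6 without each rat, with 3 on leaving out WT Mitsui-7 replicate 5. In p53het Mitsui-7 against p53het NM-403, in place of 1, it was 2 with normexp correction, 3 with the authors' table, 3 with a random slide block, 2 with the replicate block, 3 with the stricter filter, 5 with array weights, 2 with only these groups, 0 with each probe on its own, and 1 to 2 without each rat. The count between genotypes and for both interactions was 0 throughout. The numbers do not pair the rats, and the replicate block changed no other count of receptors.

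Counts of all genes called moved by more than 1.5 times under some alternatives. In WT Mitsui-7 rats 3420 were called, against 5433 with a fixed and 5421 with a random slide block and 1744 with the authors' table. In p53het Mitsui-7 rats 2832 were called, against 5518, 5144 and 1408 under the same alternatives, 1802 with normexp, 5241 with array weights and 1715 with only these groups. In WT NM-403 rats 784 were called, against 1893, 1899 and 491, 1444 with array weights and 459 without WT NM-403 replicate 6. In p53het NM-403 rats 373 were called, against 960, 981 and 163, 191 with normexp, 2393 with array weights, 145 with only these groups and 227 to 618 without each rat. Between the nanotubes 813 were called in WT rats, against 1538, 1542 and 315, 442 with normexp and 499 with only these groups, and 334 in p53het rats, against 507, 581 and 135 and 936 with array weights. The share of calls that were higher in WT Mitsui-7 rats was 60.2%, against 44.3% with quantile normalization, 43.2% with median scaling and 36.9% with the authors' table. Between Mitsui-7 and NM-403 in WT rats it was 83.4%, against 66.4% with median scaling, 70.0% with quantile normalization, 62.9% with the authors' table and 72.2% with a fixed slide block. In p53het NM-403 rats it was 83.4%, against 67.5% with normexp, 56.8% and 59.3% with a fixed and random slide block and 40.2% with array weights, which turned the majority. In WT NM-403 rats it was 71.8%, against 56.6% and 55.9% with the slide blocks and 58.5% with array weights. In p53het Mitsui-7 rats it was 45.7%, against 55.3% with median scaling, 52.8% with the authors' table and 54.5% with only these groups. Marco, clearly detected on 12 of 35 arrays, is limited by its signal, and the cause of these changes was not tested.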
